A study of Homo sapiens with 14 samples.

Results

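The genes OGFR, RGS19, NOLC1, WBP4, GANAB, STX12 and ZW10 were followed in KYSE510 cells, an established line of esophageal squamous cell carcinoma, across 4 siRNAs and their controls. They were found by gene name in both deposited expression tables and make up 7 of the 63677 genes listed. They were chosen by their measured FPKM, each standing well above both pairs of siNC libraries with the siRNAs, so their differences from siNC are given as a description, without a test. All 7 were above the filter of 1 FPKM (reads or fragments scaled by gene length and library depth) in both tables.

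The LAT1 series held cells given siLAT1-3 or siLAT1-2, which target SLC7A5, the gene of the amino acid transporter LAT1, with siNC as the control. The EZH2 series held cells given siEZH2-2 or siEZH2-1, which target the histone methyltransferase EZH2, with its own siNC. Every group had 2 libraries, giving 12 in all. The siRNAs were delivered with lipofectamine RNAiMAX and left for 48 h, in the same cell line throughout. No untransfected cells were analysed here, and the sources used here do not say whether siNC was the same sequence in both series. A higher level with the 4 siRNAs and a lower level with siNC therefore cannot be told apart.

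A small interfering RNA is loaded into an Argonaute protein and guides it to matching transcripts, which are cut. Through its seed, the short stretch near its start, it can also lower transcripts that match only in part. The 7 genes do unlike jobs. OGFR is the receptor of the opioid growth factor met-enkephalin, which slows cell division, and RGS19 speeds the switching off of inhibitory G-protein alpha subunits. NOLC1 is a nucleolar phosphoprotein that helps the particles modifying ribosomal RNA, and WBP4 is a WW-domain protein of the spliceosome. GANAB is the catalytic subunit of glucosidase II, which trims sugars from new glycoproteins in the endoplasmic reticulum. STX12 is a SNARE protein of endosome fusion. ZW10 belongs to the kinetochore complex of the spindle checkpoint and also to a tethering complex at the endoplasmic reticulum.

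Promoter windows of 300 bases, from 250 bases before to 50 bases after the annotated start (RefSeq, GRCh38.p14), were on hand for 6 of the 7 genes, all but NOLC1. Windows of 4 genes are shown: that of OGFR, which had the highest fold over siNC with each of the 4 siRNAs, and those of GANAB, STX12 and WBP4, which differed between siRNAs of a series. Capitals mark matches to the motifs named after the sequences, on either strand.
OGFR chr20:62804585-62804884 (plus strand): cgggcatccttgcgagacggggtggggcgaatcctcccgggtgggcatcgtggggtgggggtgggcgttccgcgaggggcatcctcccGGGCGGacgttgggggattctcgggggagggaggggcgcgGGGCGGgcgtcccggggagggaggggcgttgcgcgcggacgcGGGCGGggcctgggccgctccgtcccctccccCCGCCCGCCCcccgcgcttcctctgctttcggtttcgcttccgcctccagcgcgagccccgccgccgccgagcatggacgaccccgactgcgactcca
GANAB chr11:62646564-62646863 (minus strand): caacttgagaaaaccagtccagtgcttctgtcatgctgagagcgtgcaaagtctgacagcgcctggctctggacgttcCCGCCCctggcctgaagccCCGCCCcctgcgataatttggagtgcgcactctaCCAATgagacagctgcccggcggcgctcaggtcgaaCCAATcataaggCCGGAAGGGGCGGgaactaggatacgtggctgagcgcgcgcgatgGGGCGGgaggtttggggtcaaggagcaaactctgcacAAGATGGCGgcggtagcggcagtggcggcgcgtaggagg
STX12 chr1:27772969-27773268 (plus strand): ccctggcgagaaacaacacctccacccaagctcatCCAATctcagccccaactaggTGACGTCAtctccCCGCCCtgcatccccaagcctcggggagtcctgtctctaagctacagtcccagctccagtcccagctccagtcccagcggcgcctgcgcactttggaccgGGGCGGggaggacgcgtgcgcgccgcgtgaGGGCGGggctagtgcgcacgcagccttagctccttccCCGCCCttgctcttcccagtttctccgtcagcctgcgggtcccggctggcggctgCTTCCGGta
WBP4 chr13:41061259-41061558 (plus strand): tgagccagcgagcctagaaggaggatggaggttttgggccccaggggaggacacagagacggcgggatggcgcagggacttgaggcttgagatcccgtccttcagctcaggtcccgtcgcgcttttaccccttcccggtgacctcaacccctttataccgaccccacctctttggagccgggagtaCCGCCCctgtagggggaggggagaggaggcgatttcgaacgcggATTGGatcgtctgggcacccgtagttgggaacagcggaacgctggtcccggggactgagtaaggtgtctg

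Letters were searched on both strands. The GC box, GGGCGG, lay in every window of the 6 genes and in 45.0% of all 35116 promoter windows. OGFR held 5 GC boxes, which overlap in part, and none of the other motifs. The CRE letters, TGACGTCA, lay in the STX12 window and in 1.85% of all windows. AAGATGGCG, a YY1 motif, lay in the GANAB window and in 1.75% of all windows. An ETS motif, CCGGAAG, was present in 10.3% of all windows and in those of GANAB, STX12 and ZW10 and in 1 of the RGS19 windows. CCAAT was found in GANAB, STX12, WBP4 and ZW10, beside 34.6% of all windows. The E-box letters CACGTG lay in 1 RGS19 window and in 7.26% of all. The NRF1 letters TGCGCATGC, present in 1.56% of all windows, were in none of the members' windows. Neither was TGATGNAAT, an element bound by ATF4, which 0.991% of all windows hold. No motif other than the GC box was shared by all 6 genes. GC content was 77.7% in the OGFR window and 80.3% and 72.3% in the RGS19 windows, 67% in that of STX12 and 61.7% to 62.7% in those of ZW10, GANAB and WBP4, against a median of 58.7% over all windows.

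The libraries matched their labels. SLC7A5 stood at 26.0% of siNC with siLAT1-3 and at 20.3% with siLAT1-2 (limma adjusted p = 1.84e-06 and 1.77e-06). EZH2 stood at 36.4% of siNC with siEZH2-2 and at 40.6% with siEZH2-1 (limma adjusted p = 0.000148 and 0.000231). In the EZH2 series SLC7A5 itself was at 78.6% of siNC with siEZH2-2 and at 24.9% with siEZH2-1. All 8 squamous markers looked at were at 1.37 FPKM or more in every library, with TP63 at 23.7 FPKM or more. The 14 markers of fibroblasts, immune cells and endothelium were at 2.17 FPKM or less, with PECAM1 at 0. These levels overlap: KRT17 had 1.37 to 2.93 FPKM in the EZH2 series and COL1A1 1.62 to 2.17 FPKM in the LAT1 series. KRT17 (20.5 to 33.4 FPKM), KRT6A and DSG3 were higher in the LAT1 series without overlap. The other squamous markers overlapped between the series. CDH5, an endothelial marker, had 0.97 to 1.1 FPKM in the LAT1 series and 0.01 to 0.03 FPKM in the EZH2 series. Pairs of libraries of 1 group correlated across genes at 0.993 to 0.995, genes not being independent replicates. Depth, estimated from the steps of low values, was 12760000 to 16400000 reads or fragments in the LAT1 series and 21060000 to 27060000 in the EZH2 series. The labels do not say that paired libraries are separate cultures, so each p-value covers the spread between libraries alone, and that spread may be technical. In bulk RNA, fewer cells of a type and less RNA per cell cannot be told apart.

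Each of the 7 genes stood above its own siNC libraries with each of the 4 siRNAs, without overlap in any of the 28 combinations. In 25 of these the difference was at least 1 on the log2(FPKM + 1) scale. With siLAT1-3 this held for 5 of the 7 genes, beside 0.488% of all genes tested, and with siLAT1-2 for 6, beside 0.497%. With siEZH2-2 and siEZH2-1 it held for all 7, beside 0.665% and 0.699% of all genes. The siNC contrast chose the genes, so nothing is read from these counts. The median log2 difference of the 7 was 1.55 with siLAT1-3, 1.37 with siLAT1-2, 1.66 with siEZH2-2 and 1.60 with siEZH2-1, while the median over all genes was between 0.02 and 0.03 with each.

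The 2 signalling genes had low levels with siNC and stood high with each siRNA. OGFR (ENSG00000060491) had 17.3 and 18.2 FPKM with siLAT1-3, 18.7 and 17.4 FPKM with siLAT1-2, and 4.6 and 4.37 FPKM with siNC of the LAT1 series. It had 23.3 and 21.2 FPKM with siEZH2-2, 21.3 and 24.7 FPKM with siEZH2-1, and 4.59 and 5.07 FPKM with siNC of the EZH2 series. All 8 siRNA libraries lay far above the 4 siNC libraries, and the siRNAs of a series overlapped. Mean FPKM over siNC was 3.96-fold with siLAT1-3, 4.02-fold with siLAT1-2, 4.61-fold with siEZH2-2 and 4.76-fold with siEZH2-1.

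RGS19 (ENSG00000171700) had 8.93 and 9.41 FPKM with siLAT1-3, 9.21 and 8.84 FPKM with siLAT1-2, and 2.15 and 2.81 FPKM with siNC of that series. With siEZH2-2 it had 10.2 and 8.99 FPKM, with siEZH2-1 9.67 and 9.76 FPKM, and with siNC of the EZH2 series 2.67 and 2.76 FPKM. The siRNA libraries of the 2 series overlapped, and so did the siNC libraries. Among the 7 genes RGS19 was the most even by these values: its 4 log2 differences from siNC ran from 1.51 to 1.55, and its fold from 3.53 to 3.70. Their 95% intervals were wider than that span, at 1.33 to 1.69 with siEZH2-2 and 1.34 to 1.77 with siLAT1-3. So close a match is finer than 2 libraries per group resolve.

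The nucleolar and splicing genes differed in evenness. NOLC1 (ENSG00000166197) had 157 and 155 FPKM with siLAT1-3, 116 and 119 FPKM with siLAT1-2, and 43.9 and 45.8 FPKM with siNC of the LAT1 series. In the EZH2 series NOLC1 had 121 and 124 FPKM with siEZH2-2, 112 and 113 FPKM with siEZH2-1, and 34.3 and 35.4 FPKM with siNC. The siLAT1-3 libraries stood apart from the other siRNA libraries, whose values were close to each other in both series. Its fold over siNC was 3.48 with siLAT1-3, 2.62 with siLAT1-2, 3.51 with siEZH2-2 and 3.22 with siEZH2-1.

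WBP4 (ENSG00000120688) lay nearer to its siNC in the LAT1 series. It had 8.72 and 9.71 FPKM with siLAT1-3, 8.93 and 9.04 FPKM with siLAT1-2, and 4.54 and 4.0 FPKM with siNC of the LAT1 series. In the EZH2 series WBP4 had 18.9 and 16.6 FPKM with siEZH2-2, 13.3 and 14.2 FPKM with siEZH2-1, and 5.19 and 4.97 FPKM with siNC. The LAT1 siRNAs overlapped, while the siEZH2-2 libraries lay above those of siEZH2-1. Fold over siNC was 2.16 with siLAT1-3, 2.10 with siLAT1-2, 3.49 with siEZH2-2 and 2.71 with siEZH2-1.

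**Figure D1:**
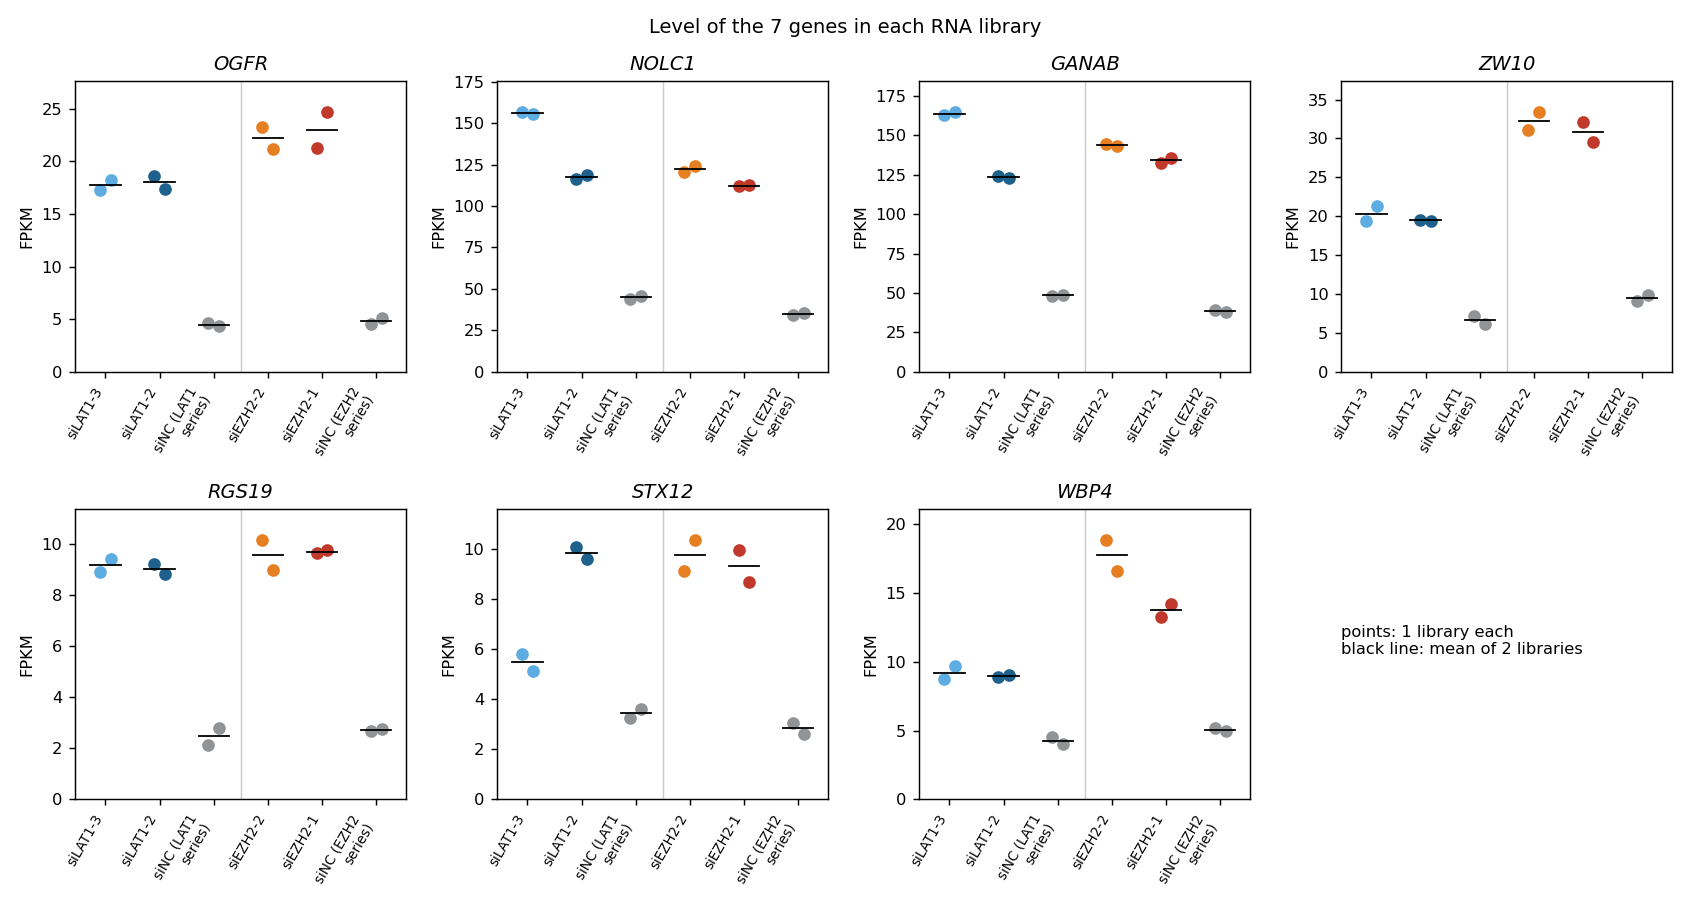
FPKM of each of the 7 genes (one panel each) in the 12 libraries, by group. Each point is 1 library and each black line the mean of 2, and the siNC libraries lie lowest in every panel, at 4.37 to 5.07 FPKM for OGFR, while STX12 at 5.13 and 5.81 FPKM with siLAT1-3 lies nearest to them.

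The membrane and trafficking genes included the gene closest to NOLC1 in level and the most uneven one. GANAB (ENSG00000089597) had 163 and 165 FPKM with siLAT1-3, 124 and 123 FPKM with siLAT1-2, and 47.9 and 49.0 FPKM with siNC of the LAT1 series. With the EZH2 siRNAs, GANAB had 145 and 143 FPKM with siEZH2-2, 133 and 136 FPKM with siEZH2-1, and 38.9 and 37.9 FPKM with siNC. As for NOLC1, the siLAT1-3 libraries were highest and siNC lay far below all siRNAs. The ratio of GANAB to NOLC1, both in FPKM and so per length, stayed between 1.04 and 1.21 over the 12 libraries. It was 1.04 to 1.07 with the LAT1 siRNAs and 1.15 to 1.21 with the EZH2 siRNAs. With siNC the ratio was 1.09 and 1.07 in the LAT1 series and 1.13 and 1.07 in the EZH2 series. The ratio of STX12 to RGS19, the other one looked at, ran from 0.55 to 1.52. Fold over siNC was 3.38 with siLAT1-3, 2.55 with siLAT1-2, 3.75 with siEZH2-2 and 3.50 with siEZH2-1.

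STX12 (ENSG00000117758) had 5.81 and 5.13 FPKM with siLAT1-3, 10.1 and 9.58 FPKM with siLAT1-2, and 3.26 and 3.63 FPKM with siNC of the LAT1 series. With siEZH2-2 it had 9.13 and 10.4 FPKM, with siEZH2-1 9.94 and 8.67 FPKM, and with siNC of the EZH2 series 3.07 and 2.61 FPKM. The other siRNAs gave like levels, and siLAT1-3 lay between those and siNC without overlapping either. Its fold over siNC was 1.59 with siLAT1-3, 2.85 with siLAT1-2, 3.43 with siEZH2-2 and 3.28 with siEZH2-1, so that its log2 differences ran from 0.54 to 1.49, the widest span of the 7 genes.

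ZW10 (ENSG00000086827) had 19.4 and 21.3 FPKM with siLAT1-3, 19.6 and 19.4 FPKM with siLAT1-2, and 7.12 and 6.13 FPKM with siNC of the LAT1 series. Higher levels were listed in the EZH2 series, with 31.1 and 33.4 FPKM for siEZH2-2, 32.2 and 29.6 FPKM for siEZH2-1, and 9.15 and 9.85 FPKM for siNC. The siRNAs of a series overlapped, and siNC lay below them in both. Fold over siNC was 3.07 with siLAT1-3, 2.94 with siLAT1-2, 3.40 with siEZH2-2 and 3.25 with siEZH2-1.

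**Figure D2:**
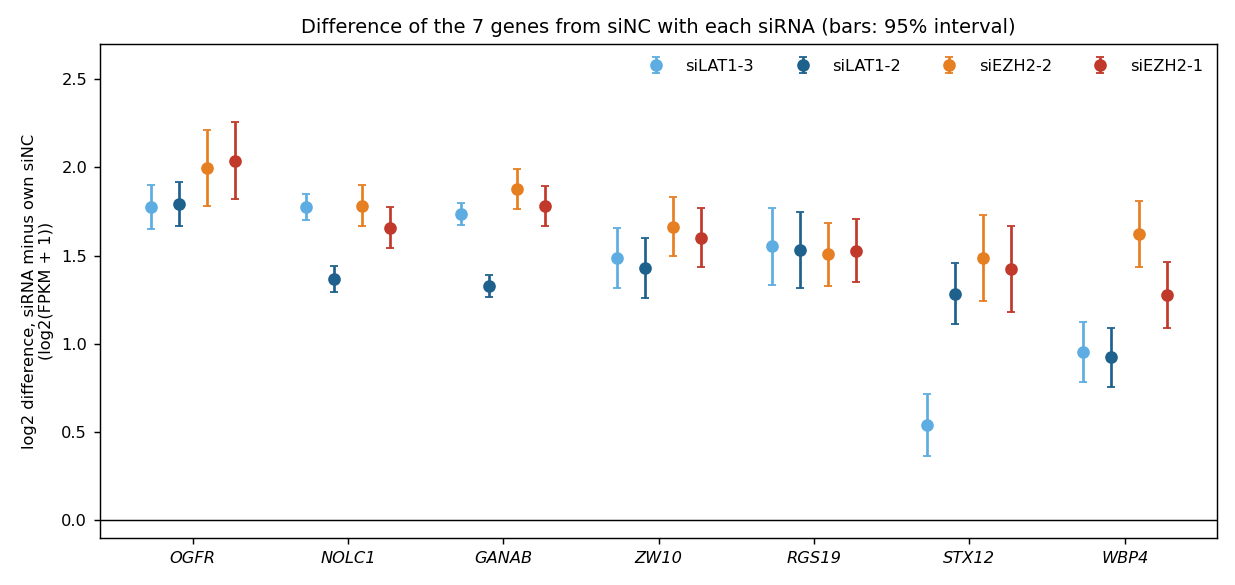
Difference of each siRNA from its own siNC on the log2(FPKM + 1) scale for the 7 genes, with points for the 4 siRNAs and bars for the 95% interval of the fit (2 libraries each). RGS19 has nearly level points from 1.51 to 1.55, and STX12 has the lowest point, 0.54 with siLAT1-3.

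How equal the siRNAs of a series were was tested as the difference between them (limma on log2(FPKM + 1), adjusted over all genes of the table). No siNC value enters that difference. The siNC libraries of the table do share in its estimated spread, and so in each interval and p-value. The genes had been chosen to be high with each siRNA, which limits how far they could differ, and with 2 libraries a side the smallest p of an exact permutation test is 0.333. Between the LAT1 siRNAs 3 of the 7 genes passed, beside 25.5% of all genes tested. NOLC1 was higher with siLAT1-3 than with siLAT1-2 by 0.41 on the log2 scale (95% interval 0.34 to 0.48, adjusted p = 0.000195), and GANAB by 0.41 (0.34 to 0.47, adjusted p = 0.000117). STX12 went the other way, lower with siLAT1-3 by a log2 difference of -0.74 (-0.92 to -0.57, adjusted p = 0.000657). These 3 calls held under every alternative tried, with adjusted p of at most 0.00425 for NOLC1, 0.00242 for GANAB and 0.0111 for STX12.

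The other 4 genes did not pass between the LAT1 siRNAs. Their log2 difference, siLAT1-3 minus siLAT1-2, was -0.02 for OGFR (95% interval -0.14 to 0.10), 0.06 for ZW10 (-0.11 to 0.23), 0.02 for RGS19 (-0.20 to 0.24) and 0.03 for WBP4 (-0.14 to 0.20). Over the 7 genes the median absolute difference was 0.058, beside 0.115 over all genes.

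Between the EZH2 siRNAs only WBP4 passed, 1 of the 7 genes beside 16.3% of all genes tested. WBP4 was higher with siEZH2-2 than with siEZH2-1 by 0.34 (95% interval 0.16 to 0.53, adjusted p = 0.0308). That call was lost without siEZH2-1 replicate 1 (adjusted p = 0.139), without siEZH2-1 replicate 2 (0.0944), without siEZH2-2 replicate 1 (0.110), without the filter on low values (0.113) and with the replicate number as a block (0.0715), over a range of 0.0235 to 0.139 for all alternatives. NOLC1 had a difference of 0.12 (0.01 to 0.24, adjusted p = 0.133) and GANAB of 0.10 (-0.01 to 0.21, adjusted p = 0.209). The log2 differences of the rest were -0.04 for OGFR (-0.26 to 0.17), -0.02 for RGS19 (-0.20 to 0.16), 0.06 for STX12 (-0.18 to 0.30) and 0.06 for ZW10 (-0.11 to 0.23). The median absolute difference was 0.062 over the 7 genes and 0.131 over all genes. RGS19, OGFR and ZW10 thus passed in neither series, with intervals that leave room for differences of up to about 0.26 in size.

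**Figure D3:**
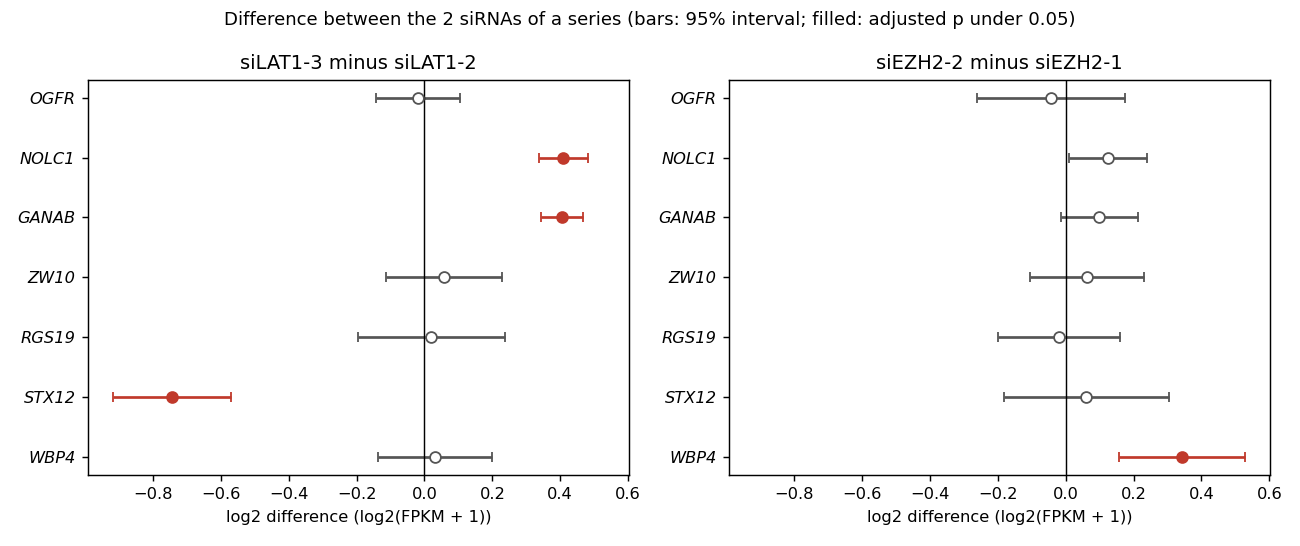
Log2(FPKM + 1) difference between the siRNAs of each series for the 7 genes, siLAT1-3 minus siLAT1-2 on the left and siEZH2-2 minus siEZH2-1 on the right, with 95% intervals and filled points at an adjusted p under 0.05. NOLC1 and GANAB (0.41 each) and STX12 (-0.74) are filled on the left, and WBP4 (0.34) on the right.

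Levels with siNC were compared between the tables as values only, since each table was fitted on its own and no test was made between tables. OGFR with siNC averaged 4.49 ± 0.163 FPKM in the LAT1 series and 4.83 ± 0.339 FPKM in the EZH2 series (SD, n = 2 each), and the libraries overlapped. RGS19 also overlapped, at 2.48 ± 0.467 FPKM in the LAT1 series and 2.72 ± 0.0636 FPKM in the EZH2 series. No overlap was seen for the other 5 genes. NOLC1 stood at 44.8 ± 1.31 FPKM in the LAT1 series and 34.9 ± 0.735 FPKM in the EZH2 series, and GANAB stood at 48.5 ± 0.764 FPKM in the LAT1 series and 38.4 ± 0.735 FPKM in the EZH2 series. Both genes were thus higher with siNC of the LAT1 series, by 0.35 and 0.33 on the log2 scale, and STX12 by 0.21. ZW10 (-0.46) and WBP4 (-0.21) were lower there.

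These siNC differences lay within the spread of all genes. Over the 10804 genes tested in both tables, siNC levels of the LAT1 series minus those of the EZH2 series had a median of -0.12, with 5% of genes below -0.88 and 5% above 0.84. The 7 genes lay between the 21.1 percentile (ZW10) and the 82.6 percentile (NOLC1). Their median was -0.09, which turned to 0.04 without siNC replicate 1 of the LAT1 series. In the siRNA libraries the LAT1 minus EZH2 difference was -0.72 for WBP4 and -0.64 for ZW10, 0.20 for NOLC1 and 0.03 for GANAB, and between -0.33 and -0.08 for STX12, OGFR and RGS19.

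**Figure D4:**
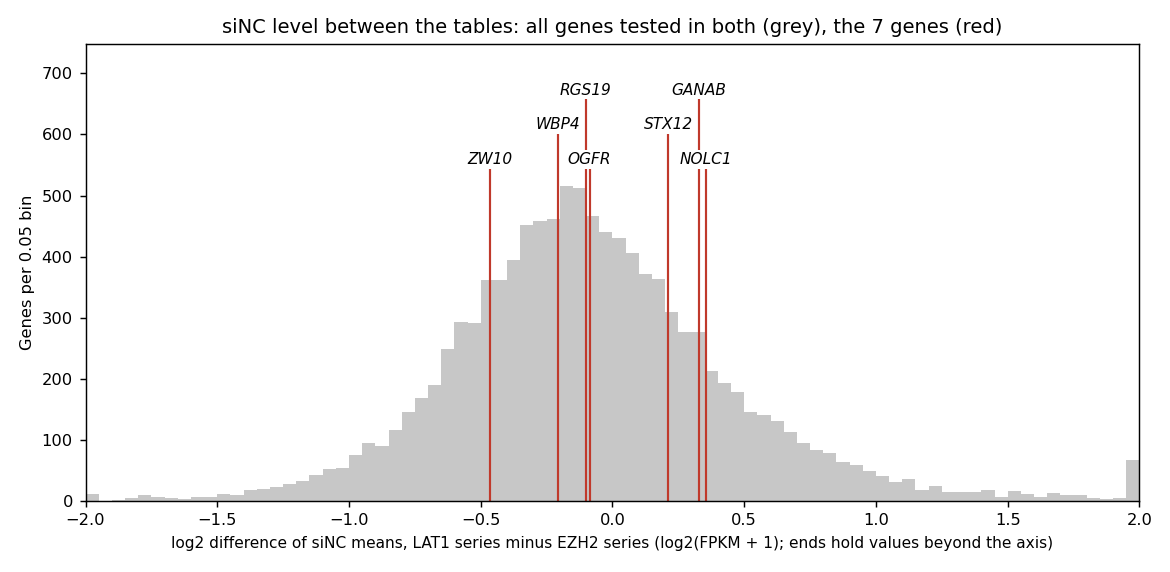
Distribution over 10804 genes of the siNC level in the LAT1 series minus that in the EZH2 series, on the log2(FPKM + 1) scale, as genes per bin, with a red line for each of the 7 genes. The lines run from ZW10 at -0.46 to NOLC1 at 0.35, inside the bulk of the distribution.

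Ranked by the lowest of the 4 log2 differences from siNC among the 10804 genes, OGFR was at rank 1, RGS19 at 3, ZW10 at 4, NOLC1 at 6 and GANAB at 8. WBP4 (lowest difference 0.92, with siLAT1-2) was at rank 22 and STX12 (0.54, with siLAT1-3) at rank 123. A difference of at least 1 with all 4 siRNAs was held by 17 genes (0.157% of the 10804), of which 5 were among the 7, and none had a difference of -1 or lower with all 4. That count was 32 with a pseudocount of 0.1 FPKM and 11 with the filter at 5 FPKM. The siRNAs of a series share their siNC libraries, so the 4 differences are not independent.

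Among the 10 genes most like the 7 by this measure, over the 4 siRNAs, were TPM4, RPL39P36, ZNF845, ZNF138, POLR2D, HABP4, ZNF616, FOXP4 and BICD2. With siNC, RPL39P36 averaged 0.665 FPKM in the LAT1 series and 0.40 FPKM in the EZH2 series, and ZNF616 averaged 0.51 and 0.805 FPKM. HABP4 averaged 0.86 FPKM with siNC of the LAT1 series. Where siNC was under 1 FPKM, these genes passed the filter only through the siRNA libraries, in which they were high. TPM4, a tropomyosin of the actin cytoskeleton, had 59.3 and 57.8 FPKM with siLAT1-3, 61.3 and 61.4 FPKM with siLAT1-2, and 19.3 and 18.2 FPKM with siNC of the LAT1 series. Its libraries of siEZH2-2 held 90.9 and 91.7 FPKM, those of siEZH2-1 99.2 and 98.0 FPKM, and those of siNC in the EZH2 series 23.7 FPKM each. POLR2D, a subunit of RNA polymerase II, averaged 30.3 FPKM with siLAT1-3, 29.4 FPKM with siLAT1-2 and 11.9 FPKM with siNC. Both genes stood at like levels with siLAT1-3 and siLAT1-2, but not all of the named genes did. ZNF138 was lower with siLAT1-3 than with siLAT1-2, at -0.22 on the log2 scale (limma adjusted p = 0.0284). BICD2 was also lower there, at -0.24 (limma adjusted p = 0.0218). Between the EZH2 siRNAs ZNF138 was higher with siEZH2-2, by 0.42 (limma adjusted p = 0.0109). The other genes named here did not pass between the siRNAs of either series. RPL39P36 is a ribosomal protein pseudogene, and how reads shared with related copies were counted is not given in the sources used here, so its values are uncertain.

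**Figure D5:**
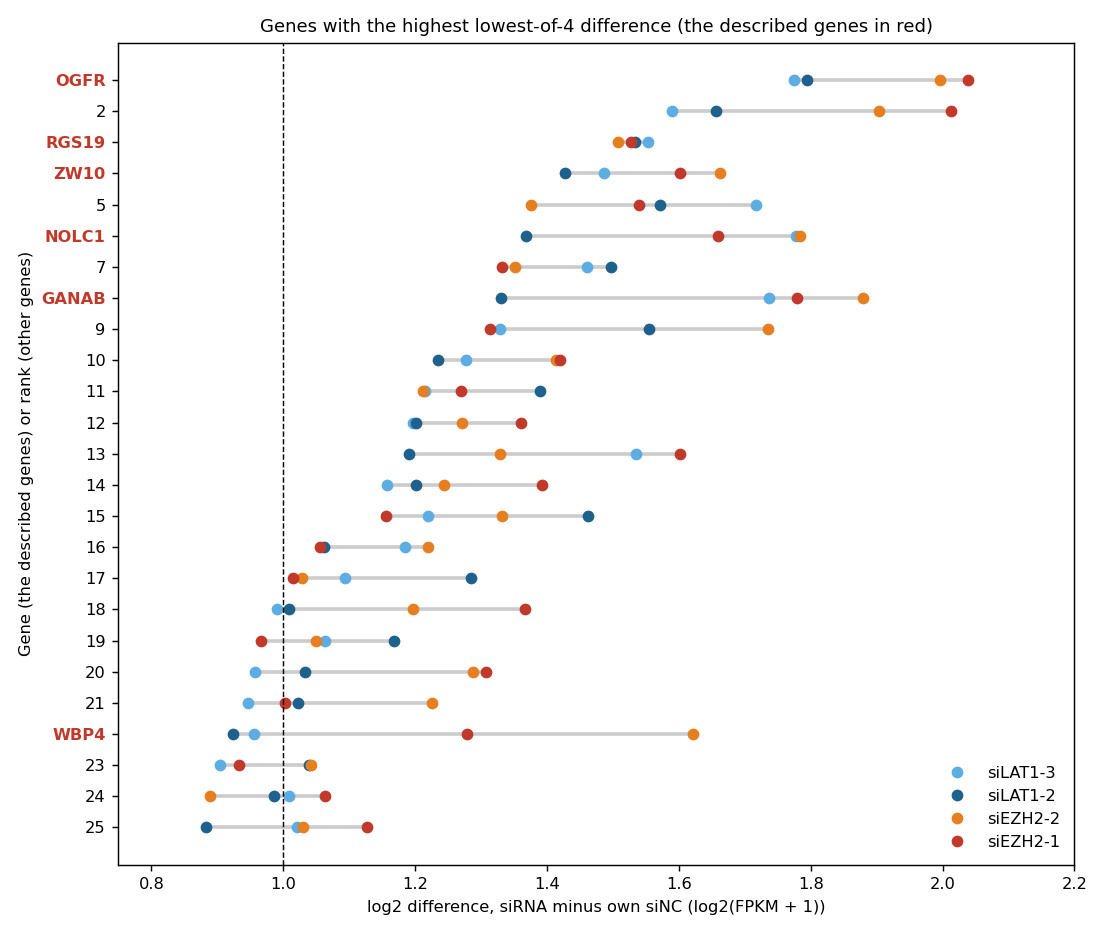
Log2(FPKM + 1) differences from siNC with each of the 4 siRNAs (points) for the genes with the highest lowest-of-4 value, ordered from the top, the described genes in red by name, the others by rank, and a dashed line at 1. OGFR is at the top with a lowest value of 1.77, RGS19 has the tightest points, and WBP4 starts left of the line at 0.92. STX12, at rank 123, is not among the genes drawn.

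Genes that work with the 7 were then read as the mean of both siRNAs minus siNC (limma, adjusted over all genes of the table). These 87 partners were listed by their textbook roles, at a time when earlier results of these data were known, so their counts are a description. With the LAT1 siRNAs 23 of 83 tested partners were higher (27.7%, beside 19.3% of all genes) and 14 lower (16.9%, beside 15.3%). With the EZH2 siRNAs 13 of 81 were higher (16.0%, beside 17.0%) and 11 lower (13.6%, beside 13.0%). The same shares of all genes apply beside the counts for each gene below, which are small, and nothing is read from those counts. The median log2 difference of the partners was 0.02 in the LAT1 series and 0.00 in the EZH2 series, beside 0.01 and 0.03 over all genes. The counts leaned on the siNC libraries. Without siNC replicate 1 or replicate 2 of the LAT1 series, 11 or 14 partners were higher and 8 or 5 lower. Without siNC replicate 1 of the EZH2 series 3 were higher and 5 lower, without its replicate 2 the number higher was 8, and without siEZH2-1 replicate 2 it was 8 with 7 lower.

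Of the 5 partners of OGFR tested, 2 rose and 2 fell in the LAT1 series and 2 fell in the EZH2 series. CDKN1A, a cyclin-dependent kinase inhibitor, averaged 11.8 FPKM with siLAT1-3 and 11.6 FPKM with siLAT1-2, against 24.7 FPKM with siNC, a mean log2 difference of -1.02 (adjusted p = 3.94e-05). Means in the EZH2 series were 16.4 FPKM (siEZH2-2), 22.4 FPKM (siEZH2-1) and 36.3 FPKM (siNC), a mean log2 difference of -0.89 (adjusted p = 0.000773). KPNA2, a nuclear import adaptor, also fell, at -0.37 with the LAT1 siRNAs and -0.42 with the EZH2 siRNAs (adjusted p = 0.000148 and 0.000894). The import receptor KPNB1 rose by 0.15 with the LAT1 siRNAs. OGFRL1, a relative of OGFR in sequence, rose there by 0.24, at 0.05 with siLAT1-3 and 0.42 with siLAT1-2, a call lost without siNC replicate 1 (adjusted p = 0.0713).

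For RGS19, 3 of 11 tested partners rose and 1 fell in the LAT1 series, and 1 of 9 rose and 1 fell in the EZH2 series. GNAI1, an inhibitory alpha subunit that RGS19 acts on, fell, at -0.55 with the EZH2 siRNAs (adjusted p = 0.00366). It stood at -0.27 with siEZH2-2 and at -0.83 with siEZH2-1. With the LAT1 siRNAs it fell, at -0.17, a call lost without either siNC library. Its relative GNAI2 rose by 0.25 with the LAT1 siRNAs and by 0.34 with the EZH2 siRNAs, the second lost without siNC replicate 1 (adjusted p = 0.0616). RGS20 (0.42) and GNAQ (0.22) rose in the LAT1 series, both calls being lost without siNC replicate 1 and that of GNAQ also without replicate 2. GNAQ stood at 0.37 with siLAT1-3 and at 0.07 with siLAT1-2.

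Among the partners of NOLC1, 5 of 13 rose and 2 fell in the LAT1 series, and 2 rose and 1 fell in the EZH2 series. TCOF1, the nucleolar protein treacle, rose by a mean of 0.33 with the LAT1 siRNAs, but stood at -0.16 with siLAT1-3 and at 0.83 with siLAT1-2, the reverse of the NOLC1 order. It rose by 0.81 with the EZH2 siRNAs (adjusted p = 0.000439). DKC1, the pseudouridine synthase of small nucleolar particles, rose by 0.33 with the LAT1 siRNAs and by 0.22 with the EZH2 siRNAs, the EZH2 call being lost without siEZH2-1 replicate 2 or siNC replicate 1. POLR1B, a subunit of RNA polymerase I, rose by 0.25 in the LAT1 series. NPM1 fell, at -0.08 in the LAT1 series, lost without any library except siLAT1-2 replicate 2 and turned to 0.04 by quantile normalization. In the EZH2 series its mean was -0.19, a call lost without any library except those of siEZH2-2, and it stood at 0.06 with siEZH2-2 and at -0.43 with siEZH2-1.

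Of 13 partners of WBP4, 2 rose and 3 fell in the LAT1 series, and 2 rose and 2 fell in the EZH2 series. PRPF6, a protein of the U4/U6-U5 particle, rose by 0.18 with the LAT1 siRNAs and by 0.27 with the EZH2 siRNAs, the second lost without siEZH2-1 replicate 2 or siNC replicate 1. SNRPB2, of the U2 particle, had a mean of -0.12 in the LAT1 series, lost without siLAT1-2 replicate 2, siLAT1-3 replicate 1 or siNC replicate 2, and of -0.21 in the EZH2 series, where only leaving out siEZH2-2 replicate 1 kept the call. In each series 1 siRNA carried that mean, with SNRPB2 at -0.26 for siLAT1-3 and 0.01 for siLAT1-2, and at -0.40 for siEZH2-2 and -0.02 for siEZH2-1. FNBP4 rose by 0.18 in the LAT1 series, lost without siNC replicate 2.

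Among 13 partners of GANAB, 6 rose and 1 fell in the LAT1 series, and 3 rose and 1 fell in the EZH2 series. EDEM1, which directs misfolded glycoproteins to degradation, fell, at -0.61 with the EZH2 siRNAs (adjusted p = 0.00204). It stood at -0.27 with siEZH2-2 and at -0.95 with siEZH2-1. UGGT1, the enzyme that puts back the glucose that glucosidase II removes, had a mean of -0.30 with the LAT1 siRNAs (adjusted p = 0.00096), but stood at 0.08 with siLAT1-3 and at -0.68 with siLAT1-2. PRKCSH, the beta subunit of glucosidase II, rose by 0.31 with the EZH2 siRNAs, lost without siNC replicate 1. OSTC, of the oligosaccharyltransferase, rose by 0.25 in each series, lost without siNC replicate 1 in either and without replicate 2 in the EZH2 series.

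For STX12, 2 of 16 partners rose and 4 fell in the LAT1 series, and 3 rose and 2 fell in the EZH2 series. NSF, the ATPase that takes SNARE complexes apart, rose by 0.54 with the EZH2 siRNAs (adjusted p = 0.00104). BLOC1S6, which binds STX12 in endosomal sorting, rose by 0.34 with the LAT1 siRNAs and by 0.37 with the EZH2 siRNAs, the second lost without either siNC library. STX6 fell, at -0.32 with the LAT1 siRNAs and at -0.33 with the EZH2 siRNAs, the second lost without siNC replicate 1. STX7 fell, at -0.29 in the EZH2 series, a call that held only without siEZH2-2 replicate 2 or siNC replicate 2.

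For ZW10, 3 of 12 tested partners rose and 1 fell in the LAT1 series, and 2 rose and 2 fell in the EZH2 series. ZWINT, which ties the ZW10 complex to the kinetochore, rose by 0.34 with the LAT1 siRNAs and by 0.59 with the EZH2 siRNAs (adjusted p = 0.000646 and 0.000366). SPDL1, the dynein adaptor that the complex recruits, fell, at -0.77 with the EZH2 siRNAs (adjusted p = 0.000556), at -1.29 with siEZH2-2 and -0.25 with siEZH2-1. In the LAT1 series it fell, at -0.16, lost without siNC replicate 2. MAD1L1 rose by 0.42 with the LAT1 siRNAs, lost without either siNC library, and by 0.47 with the EZH2 siRNAs, lost without siNC replicate 1. RINT1, of the tethering complex, fell, at -0.29 in the EZH2 series, lost without siNC replicate 1.

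Genes beside the 7 on their chromosomes were read the same way, taking the 3 annotated genes on each side. Of these 42, 18 were tested. With the LAT1 siRNAs 5 were higher (27.8%, beside 19.3% of all genes) and 2 lower (11.1%, beside 15.3%). With the EZH2 siRNAs 7 were higher (38.9%, beside 17.0%) and 3 lower (16.7%, beside 13.0%). Without siNC replicate 1 of the EZH2 series 2 were higher and 0 lower, without its replicate 2 the number higher was 4, and without siEZH2-1 replicate 2 it was 3. The LAT1 count of higher genes was 3 without siNC replicate 1 or siLAT1-2 replicate 1. PPP1R8, a phosphatase regulator beside STX12, rose by 0.32 with the LAT1 siRNAs and by 0.36 with the EZH2 siRNAs, and both calls held without any library. Beside WBP4, the transcription factor ELF1 fell, at -0.28 with the LAT1 siRNAs and at -0.43 with the EZH2 siRNAs, and KBTBD6 fell, at -0.43 and -0.40, while WBP4 itself was higher. ELF1 stood at -0.47 with siLAT1-3 and at -0.08 with siLAT1-2. The EZH2 calls of ELF1 and KBTBD6 were lost without siNC replicate 1. MRGBP beside OGFR (0.28) and PPRC1 beside NOLC1 (0.23) rose in the LAT1 series, and LDB1 beside NOLC1 rose by 0.44 in the EZH2 series, each without loss. GBF1 and ROM1 rose in both series and TCFL5, EML3 and INTS5 in the EZH2 series, where HPS6 fell. These calls were lost without 1 or more libraries, siNC replicate 1 among them in each case.

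Reads of overlapping genes bear on 3 of the 7, since the strand setting of the counting is not given in the sources used here. OGFR-AS1, an antisense transcript that overlaps OGFR, was between 0.34 and 1.30 FPKM over the 12 libraries and under the filter. ZW10 overlaps 2 pseudogenes and RGS19 overlaps the microRNA gene MIR6813 in the RefSeq gene table. Their part in the levels of OGFR, ZW10 and RGS19 was not tested.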

How the data were processed

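RNA sequencing of KYSE510 cells gave 12 libraries in 2 deposited tables, 1 per series. The authors gave FPKM values to 2 decimals; the unit was inferred from the values. Per the submitters' processing notes, hg19 and hg38 and the tools STAR, Bowtie, Bowtie2, Picard, SEACR and Trim Galore were used. The counter, strand setting and gene lengths are not given in the sources used here. The 2 EZH2 CUT&Tag samples were not analysed here. Depth, in reads or fragments, was estimated from low FPKM values of short RNA genes, with RefSeq lengths. A depth was taken at which the share of whole multiples of 1 read was near its highest over the depths scanned. That share was 86.4% to 90.0% (within 0.12 reads). The 24.0% given by chance holds for a depth fixed beforehand, so it is not a like measure for a share picked as high.

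Each table was fitted alone: log2(FPKM + 1) of genes averaging 1 FPKM or more (11678 in the LAT1 series, 11585 in the EZH2 series), limma 3.58.1 in R 4.3.3 with a trended prior, two-sided, Benjamini-Hochberg adjustment over all genes, calls at an adjusted p under 0.05, intervals at 95%. The pseudocount understates the change of low genes. No test was made between tables. Other settings were no filter or a higher filter at 5 FPKM, a replicate block, quantile normalization, a pseudocount of 0.1 and leaving out each library. Titles number both siNC libraries of the LAT1 series alike, so their descriptions were followed.

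Named were the 7 genes, both targets, the 10 other genes with the highest lowest-of-4 difference, up to 4 called partners per gene with the largest difference, and called neighbours; some of these are not reported here. The members and lists were chosen with earlier results of these data known.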

Additional observations from a re-analysis of the deposited data

Results flagged for a closer look

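Differences between siRNAs of the same target were picked out for 4 of the 7 genes. With siLAT1-3, NOLC1 was higher than with siLAT1-2 by 0.41 on the log2(FPKM + 1) scale and GANAB by 0.41, while STX12 was lower, with a difference of -0.74. WBP4 was higher with siEZH2-2 than with siEZH2-1 by 0.34, a call that is lost without siEZH2-1 replicate 1 (limma adjusted p = 0.139). The test was of the difference itself, with 2 libraries per siRNA. Groups of 2 libraries are too small to look for a library that stands apart.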

How the results depend on the processing

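The 3 members called between the LAT1 siRNAs passed in every alternative. The 1 called between the EZH2 siRNAs became 0 without the filter and 0 with the replicate block, and leaving out a library gave 0 to 1. With a pseudocount of 0.1 FPKM the members' median difference from siNC was 1.75 with siLAT1-3, 1.49 with siLAT1-2, 1.78 with siEZH2-2 and 1.69 with siEZH2-1. Leaving out a library gave 1.52 to 1.69 for siLAT1-3. The number of genes with a difference of at least 1 with all 4 siRNAs was 32 with that pseudocount and 11 with the filter at 5 FPKM. The median siNC difference between tables ran from -0.118 to 0.0365 when a library was left out, positive without siNC replicate 1 of the LAT1 series.

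Without the filter, which adds low genes to the adjustment, 14 partners were higher and 9 lower in the LAT1 series, 5 higher and 7 lower in the EZH2 series, with 3 neighbours higher in the LAT1 series and 4 higher and 1 lower in the EZH2 series. Leaving out a library gave 11 to 21 partners higher and 5 to 15 lower in the LAT1 series and 3 to 13 higher and 5 to 12 lower in the EZH2 series. For neighbours it gave 3 to 5 higher in the LAT1 series, and 2 to 6 higher and 0 to 3 lower in the EZH2 series. With protein-coding neighbours alone, an alternative chosen after seeing the data, 27 were tested. In the LAT1 series 7 were higher (25.9%, beside 19.3% of all genes) and 3 lower (11.1%, beside 15.3%). In the EZH2 series 9 were higher (33.3%, beside 17.0%) and 4 lower (14.8%, beside 13.0%). The causes were not tested.

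With the replicate block 3 neighbours were higher in each series. Deviations of same-numbered libraries correlated at -0.35, 0.35 and -0.34 in the EZH2 series and at 0.02 to 0.08 in the LAT1 series. Neither the labels nor these values show that a number marks a pair, and whether libraries share another factor was not tested.

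NPM1 turned to 0.0413 with quantile normalization in the LAT1 series, with an adjusted p of 0.427. Differences near 0 also changed sign when a library was left out. Between the LAT1 siRNAs they ran from -0.0677 to 0.0287 for OGFR, -0.00846 to 0.123 for ZW10, -0.0135 to 0.0546 for RGS19 and -0.0388 to 0.101 for WBP4. Between the EZH2 siRNAs they ran from -0.145 to 0.058 for OGFR, -0.0283 to 0.15 for STX12 and -0.101 to 0.0600 for RGS19. Against siNC they ran, in the LAT1 series, from -0.107 to 0.00215 for RINT1, -0.0248 to 0.0874 for HPS6 and -0.041 to 0.0175 for STX7, and in the EZH2 series from -0.0211 to 0.0806 for DIDO1 and -0.0691 to 0.0885 for SLC25A15, both protein-coding neighbours. Depth sets no interval here, since FPKM hold no counts.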
